A study of Mus musculus with 12 samples.

Results

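Libraries labelled WT and GSH were set beside libraries labelled Ctrl and Cas9 from the same RNA sequencing series. The labels give all of them as 4T1, a mouse mammary carcinoma cell line, in culture, and name 4 groups by genotype, WT, GSH, Ctrl and Cas9. They neither spell out GSH nor name a gene targeted with Cas9, so a targeted gene could not be checked first. Of the 12 samples that the labels describe, 10 were used, namely 3 WT, 3 GSH, 3 Cas9 and 1 Ctrl library (Ctrl 3), while Ctrl 1 and Ctrl 2 were not analysed here. All groups share the same growth protocol, DMEM with serum, and the labels give no animal, clone, sequencing run or treatment beyond culture. The design text pairs GSH with WT and Cas9 with Ctrl, and the deposited values follow that pairing. The 6 WT and GSH libraries were tabulated over 30803 Ensembl identifiers and the 4 Ctrl and Cas9 libraries over 17558 gene symbols, each normalised on its own.

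A carcinoma cell line in culture is a single cell lineage, whereas a tumour also holds macrophages, neutrophils, lymphocytes, fibroblasts and vessels. Each of these leaves its own transcripts in bulk RNA, such as the complement C1q chains and lysozyme of macrophages, the MHC class II chains of antigen-presenting cells or the fibrillar collagens of fibroblasts. Interferons, made largely by leukocytes, induce a further set of genes in nearly any cell that they reach. In bulk libraries like these, fewer cells of a type and less RNA per cell cannot be told apart.

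The comparison was made over the 16482 gene symbols found once in both tables. Within each library the deposited FPKM, which count fragments per kilobase of a transcript relative to the depth of the library, were rescaled to sum to 1000000 over these genes. Every level below is such a rescaled FPKM unless another unit is named, and every difference is the mean of log2(level + 1) in the 4 Ctrl and Cas9 libraries minus that in the 6 WT and GSH libraries. That scale understates the difference of genes with low levels. A gene was called higher or lower where the 2 sets of libraries did not overlap and the difference was at least 2, which is a 4-fold change well above the pseudocount of 1. Table, sequencing run and source of the samples cannot be told apart here, so no test was made between the sets and the calls are descriptions.

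Libraries of the same set resembled each other far more than libraries of different sets. Spearman's correlation across shared genes, which are not independent replicates, was 0.642 to 0.693 over the 24 pairs that span the tables. It was 0.987 to 0.994 among WT and GSH libraries and 0.958 to 0.989 among Ctrl and Cas9 libraries. The median absolute difference was 0.98 between the sets, 0.13 between GSH and WT and 0.15 between Cas9 and Ctrl. Recovered reads ran from 18531326 to 30168509 per library in the WT and GSH set and from 32788785 to 38749697 in the other set, and the depths of the sets did not overlap. Of the 20 most abundant shared genes of each set 7 were the same, among them Eef1a1, Eef2 and Rplp1 of the translation machinery. The shared genes took 68.1 to 74.2% of the FPKM in the WT and GSH set and 99.2 to 99.4% in the Ctrl and Cas9 set.

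Of the 12650 genes with a mean level of 1 or more, 1272 (10.1%) were higher in Ctrl and Cas9 and 1160 (9.17%) were lower. Without the size limit, Ctrl and Cas9 lay above WT and GSH with no overlap for 31.9% of the genes and below for 48.5% (35.9% and 44.2% by ranks within libraries). Only 19.6% of the genes overlapped, so lack of overlap was the common case and by itself does not mark out a gene. The higher genes included more very large differences, with 390 above 4 against 60 lower genes beyond -4. Genes of the higher set summed to 1.51 to 1.59% of all rescaled FPKM in WT and GSH and to 15.9 to 17.8% in Ctrl and Cas9. Genes of the lower set summed to 13.0 to 14.4% and to 1.91 to 2.28%. Within the higher set, 578 genes stayed below a level of 1 in every WT and GSH library, whereas 218 of the lower genes did so in every Ctrl and Cas9 library. Just inside the limit stood Tmem98 at 2.001 and Prrg4 at -2.001, and just outside it Egfl7 at 1.997 and Atxn2l at -1.998, so the limit marks no gap.

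**Figure D1:**
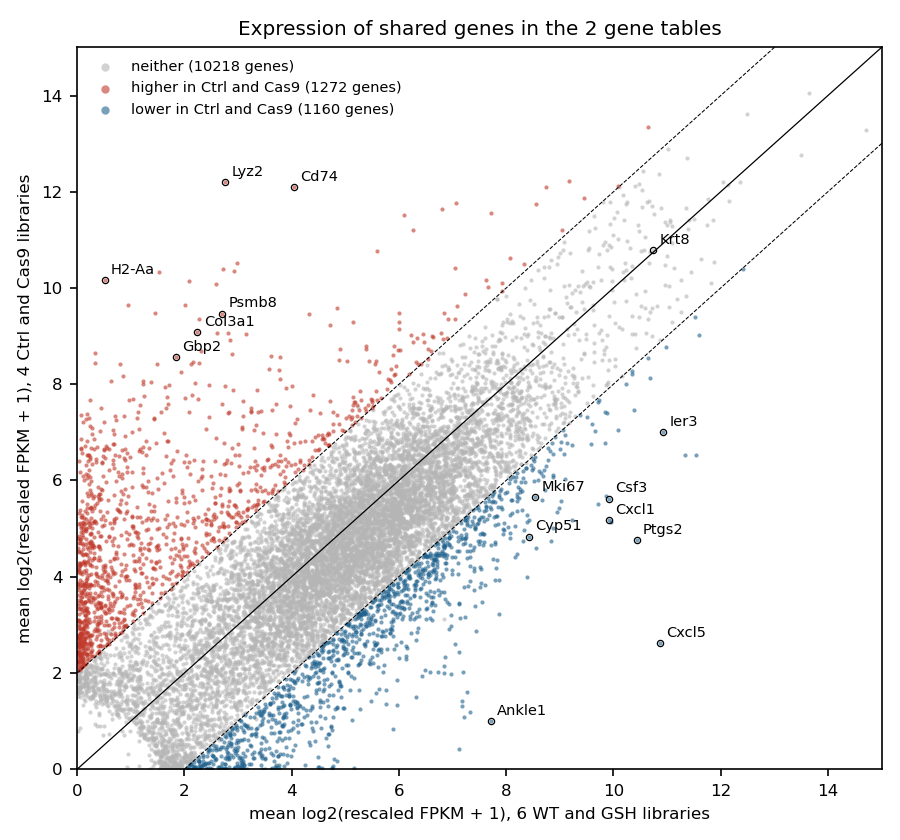
Mean log2(rescaled FPKM + 1) of each of the 12650 compared genes in the 6 WT and GSH libraries (horizontal) and the 4 Ctrl and Cas9 libraries (vertical). The solid line marks equal levels and the dashed lines a difference of 2, with the 1272 higher genes in red, the 1160 lower genes in blue and genes named in the text circled.

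Gene length entered the 2 tables differently, which bears on single genes. The lengths implied by the FPKM differed more than 2-fold between the tables for 18.5% of the shared genes. Whole reads recovered from the FPKM steps, scaled to the library total (RPM), need no length, and each difference was also computed on them, on the scale of log2(RPM + 1). By RPM 1433 genes (11.2%) were higher and 675 (5.28%) lower. The same call was made for 1099 of the 1272 higher genes, but for only 512 of the 1160 lower genes. The median difference of all compared genes was -0.30 by rescaled FPKM, 0.02 by RPM and 0.04 with median-of-ratios scaling. Among calls, 52.3% were higher by rescaled FPKM, 68.0% by RPM and 67.1% with median-of-ratios scaling. Lower calls therefore rest partly on the scaling and on gene length, and not only near the limit. Tigit, for one, went from -3.77 to -1.84 by RPM, and Slc3a2 from -3.61 to -1.43. Length mismatch was not confined to the lower calls. Implied lengths differed more than 2-fold for 24.69% of higher calls, 19.84% of all compared genes and 18.99% of lower calls. Exon bases shared with another gene were a further limit of the higher calls. Genes with most of their exon bases shared made up 6.997% of higher calls, 1.549% of all compared genes and 0.2586% of lower calls. Genes with any shared exon bases made up 36.71%, 36.13% and 29.57%. RPM needs no length but does not address shared bases, and their part in single higher calls was not tested. RPM differences are given below where they matter.

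**Figure D2:**
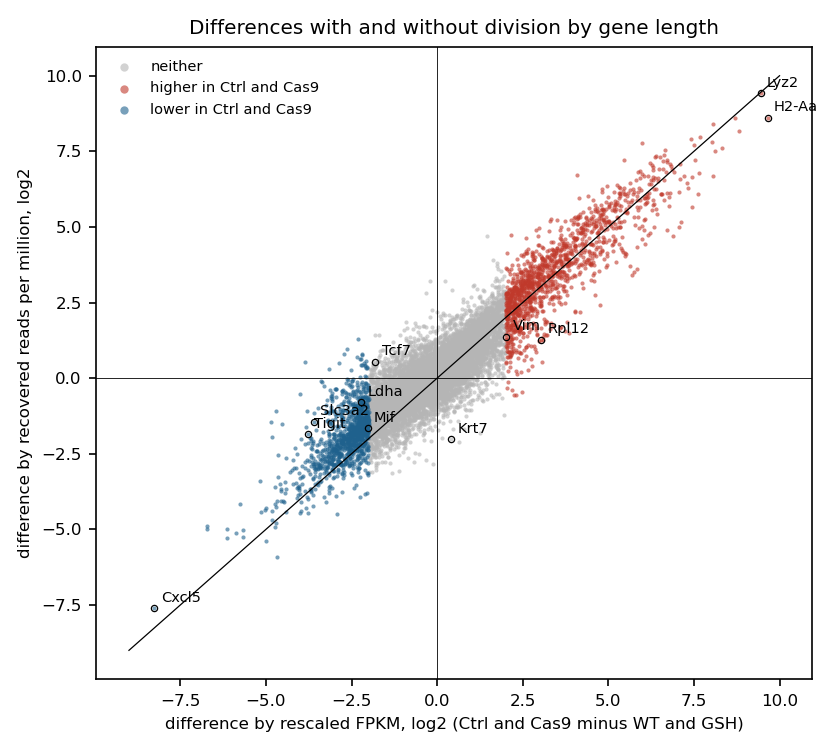
Difference between the sets of each compared gene by rescaled FPKM (horizontal) and by recovered reads scaled to the library total, RPM (vertical), both as log2 of Ctrl and Cas9 minus WT and GSH. Higher calls (red) mostly keep their size on the vertical axis, while many lower calls (blue) lie above the line of equality.

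The largest differences upward were those of H2-Aa and Lyz2. H2-Aa, an MHC class II chain, stood at 0.0527 to 1.07 (median 0.353) in the WT and GSH libraries, against 1188 in Ctrl 3 and 1199, 1795 and 679 in Cas9 1 to 3. Lyz2, the lysozyme of macrophages and neutrophils, stood at 2.21 to 27.0 (median 5.00) against 6239 in Ctrl 3 and 7118, 4780.5 and 2348 in Cas9 1 to 3. Neither gene came near an overlap, and both ranked in the top 1% of shared genes in Ctrl and Cas9. Their differences were 9.65 and 9.45, and 8.61 and 9.44 by RPM. The other 10 of the 12 largest were H2-Ab1 and H2-Eb1 (class II chains), Cd74 (the class II invariant chain), Fcgr2b (an Fc receptor), Ms4a6d (a macrophage membrane protein), C1qa and C1qc (complement C1q chains), Arg1 (arginase), Mgp (matrix Gla protein) and Ccl8 (a monocyte chemokine). Their differences lay between 7.63 and 8.81.

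**Figure D3:**
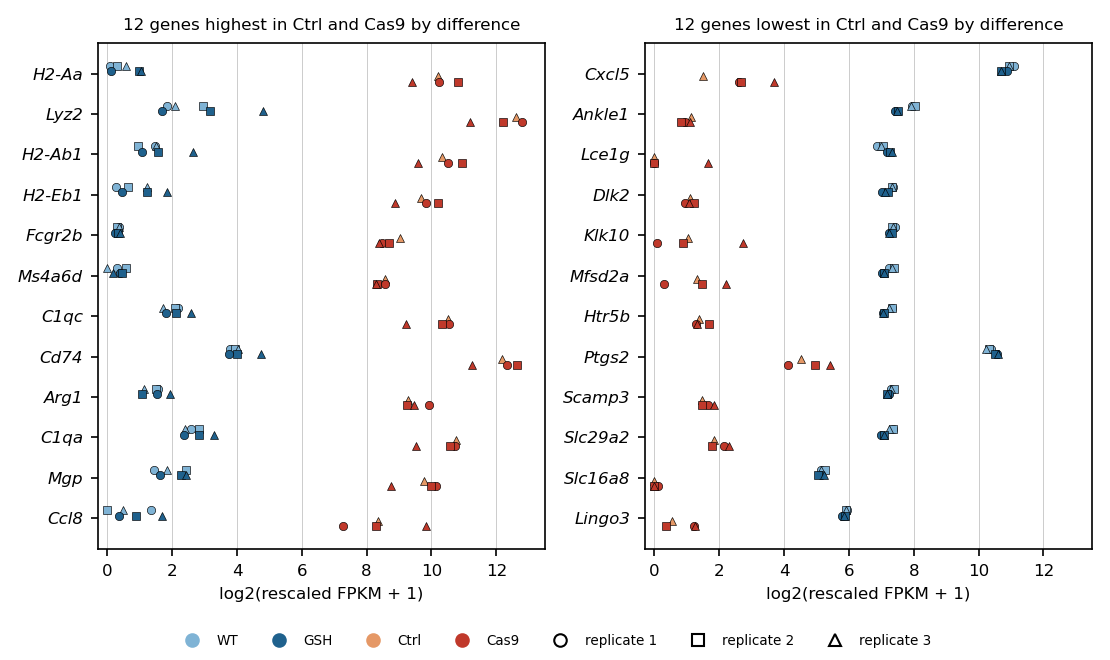
Level of the 12 genes with the largest differences in each direction, as log2(rescaled FPKM + 1) on the horizontal axis, with 1 symbol per library coloured by group and shaped by replicate number. In the left panel all Ctrl and Cas9 libraries lie to the right of all WT and GSH libraries, and in the right panel to the left.

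Leukocyte genes were higher nearly throughout. Of 18 pan-leukocyte genes compared, 17 were higher and 0 lower, against 10.1% and 9.17% of all genes, with a median difference of 4.51 against -0.30 over all genes. Laptm5, a lysosomal protein of blood cells, stood at 0.903 to 2.87 (median 1.1) against 333 in Ctrl 3 and 275, 362 and 159 in Cas9 1 to 3. The exception was Itgb2, a leukocyte integrin chain, at 83.0 to 97.6 (median 88.4) against 145 in Ctrl 3 and 152, 153 and 82.4 in Cas9 1 to 3. Its sets overlapped, since Cas9 3 lay within the WT and GSH range, and the summed list was led by Itgb2 in WT and GSH. Macrophage and monocyte markers gave 20 higher of 21. Ctss, a lysosomal protease, stood at 4.79 to 13.0 (median 6.18) against 1568 in Ctrl 3 and 1511, 1579 and 778 in Cas9 1 to 3, and Apoe, an apolipoprotein that macrophages secrete, at 121 to 160.4 (median 131) against 5199.8 in Ctrl 3 and 4743, 4045 and 1457 in Cas9 1 to 3. The 21 genes summed to 238 to 339 in the WT and GSH set, against 20810.1 in Ctrl 3 and 21177, 17306 and 8704 in Cas9 1 to 3.

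Class II and dendritic cell genes gave 7 higher of 10 and none lower, against 10.1% and 9.17% of all genes. Cas9 3 was the lowest of its set for 9 of the 10, as it was for 16 of 21 macrophage markers. The highest library differed, being Cas9 2 for 9 of the 10 and Ctrl 3 for 14 of the 21 macrophage markers. Cd74 stood at 12.5 to 25.8 (median 14.7) against 4657 in Ctrl 3 and 5153, 6411 and 2421 in Cas9 1 to 3, highest in Cas9 2 and lowest in Cas9 3. Neutrophil markers gave 8 higher of 11, and Cas9 3 was the highest of its set for 7 of the 11. S100a9, a calcium-binding protein that neutrophils hold in bulk, stood at 1.15 to 9.98 (median 3.59) against 198 in Ctrl 3 and 323, 246 and 964 in Cas9 1 to 3. Its partner S100a8 stood at 0.316 to 1.74 (median 0.912) against 114 in Ctrl 3 and 179.5, 151 and 542 in Cas9 1 to 3. Both were highest in Cas9 3, the Ctrl or Cas9 library with the lowest macrophage and class II sums. Mmp9, a neutrophil gelatinase, was present in WT and GSH at 74.6 to 84.2 (median 78.0) and stood at 406 in Ctrl 3 and 93.3, 324 and 269 in Cas9 1 to 3, a difference of 1.61.

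Lymphocyte transcripts were present at low level in Ctrl and Cas9 and at trace level elsewhere. Of 13 T cell markers compared, 7 were higher and 0 lower, against 10.1% and 9.17% of all genes. Cd3g, a chain of the T cell receptor complex, stood at 0 to 0.139 (median 0) against 11.0 in Ctrl 3 and 21.8, 26.3 and 17.7 in Cas9 1 to 3. Cd8a, the cytotoxic T cell coreceptor, stood at 0 to 0.121 (median 0) against 4.15 in Ctrl 3 and 9.79, 11.0 and 6.03 in Cas9 1 to 3. Ctrl 3 was the lowest of its set for both, without overlap with WT and GSH. Tcf7, a T cell transcription factor, went the other way, at 10.5 to 12.9 (median 11.9) against 2.42 in Ctrl 3 and 3.28, 2.81 and 2.08 in Cas9 1 to 3, but its difference of -1.80 became 0.55 by RPM, so no direction is drawn. Gzmb, a cytotoxic granule protease, led the NK and cytotoxic list, in which 5 of 6 were higher, at 0 to 0.158 (median 0) against 17.8 in Ctrl 3 and 49.5, 19.3 and 34.7 in Cas9 1 to 3. B cell markers gave no such pattern, as none of the 7 shared genes reached a mean level of 1. Cd79a, part of the B cell receptor, stood at 0.760 to 1.52 (median 1.14) against 0.438 in Ctrl 3 and 1.24, 0.0719 and 0.458 in Cas9 1 to 3. The sum of the plasma cell markers overlapped as well, at 1.99 to 8.43 against 3.95 in Ctrl 3 and 16.5, 7.82 and 3.82 in Cas9 1 to 3. All 3 mast cell markers compared were higher, among them Tpsb2, a mast cell tryptase, at 0 to 0.252 (median 0) against 11.2 in Ctrl 3 and 2.24, 16.6 and 36.0 in Cas9 1 to 3.

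**Figure D4:**
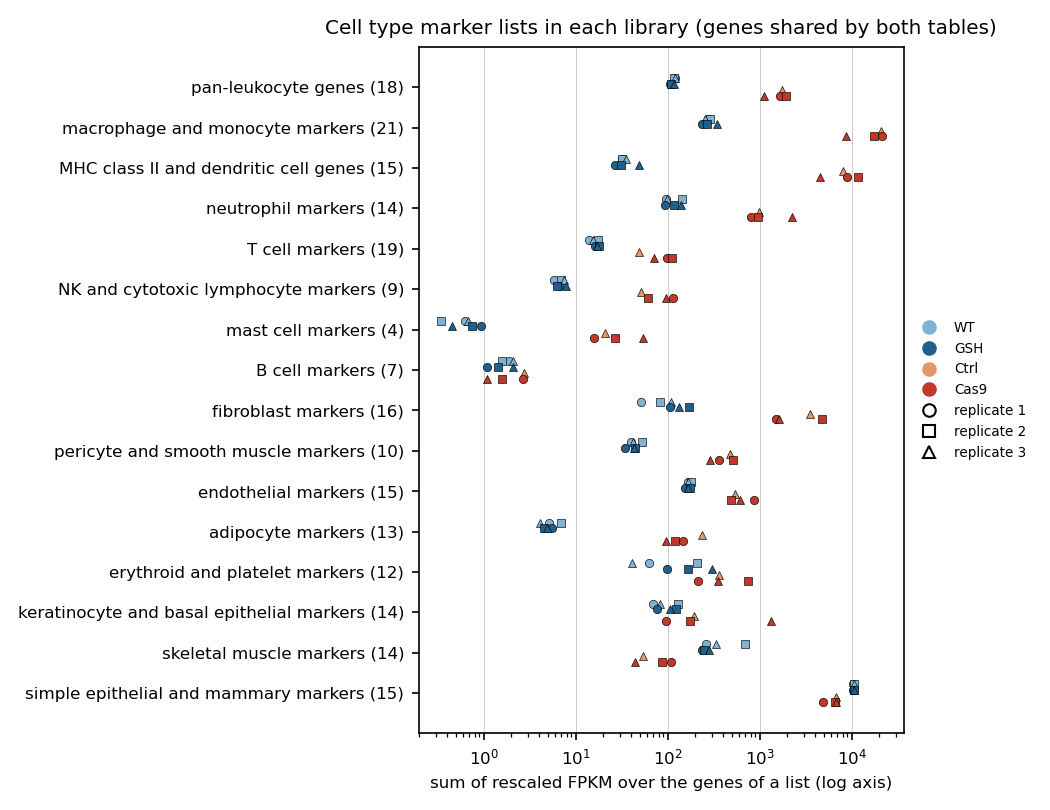
Sum of rescaled FPKM over each cell type marker list (log axis) in each library, coloured by group and shaped by replicate number, with the number of shared genes in brackets. Of the lists drawn, the B cell, erythroid and keratinocyte sums overlap, the skeletal muscle and simple epithelial sums lie lower in Ctrl and Cas9, and the other sums lie higher there.

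Stromal cell genes were higher as well. Of 16 fibroblast markers 15 were higher and 0 lower, against 10.1% and 9.17% of all genes. Col3a1, a fibrillar collagen, stood at 0.612 to 9.50 (median 4.51) against 802 in Ctrl 3 and 357, 1134 and 266 in Cas9 1 to 3, and Col1a1 at 2.59 to 80.7 (median 38.1) against 802 in Ctrl 3 and 344, 1273 and 360.0 in Cas9 1 to 3. Ctrl 3 and Cas9 2 were the upper pair for both. Postn, the matrix protein periostin, stood at 10.9 to 15.1 (median 12.3) against 524 in Ctrl 3 and 129, 494 and 283 in Cas9 1 to 3. Collagen and matrix genes gave 14 higher of 19, although Fn1 and Col4a1 did not pass the limit. Fn1, fibronectin, stood at 1790.0 to 1991 (median 1923) against 4089 in Ctrl 3 and 3312, 3903 and 2142 in Cas9 1 to 3, and Col4a1, a basement membrane collagen, at 443 to 493 (median 456) against 294 in Ctrl 3 and 446, 286 and 305 in Cas9 1 to 3. Their differences were 0.78 and -0.50.

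Endothelial markers gave 10 higher of 15, against 10.1% of all genes. Pecam1, an adhesion molecule of endothelium that leukocytes and platelets share, stood at 0.323 to 0.735 (median 0.626) against 68.9 in Ctrl 3 and 122, 53.7 and 90.5 in Cas9 1 to 3. Plvap, a protein of vessel wall diaphragms, stood at 0.906 to 2.54 (median 1.19) against 77.1 in Ctrl 3 and 112, 76.4 and 127 in Cas9 1 to 3. Cas9 1 was the highest of the Ctrl and Cas9 libraries for 13 of the 15. Of the other 5, Tek, Vwf and Egfl7 lay above without overlap at 1.94, 1.93 and 2.0, just under the limit, and Flt1, a VEGF receptor, lay below without overlap, at 20.9 to 26.3 against 10.4 to 13.7, with a difference of -0.82, or -0.10 by RPM. Eng, an endothelial TGF-beta coreceptor, overlapped, with 115 to 133 (median 125) against 163 in Ctrl 3 and 176, 152 and 117 in Cas9 1 to 3. Pericyte and smooth muscle markers gave 6 higher of 10. Acta2, smooth muscle actin, stood at 0.456 to 3.40 (median 1.36) against 141 in Ctrl 3 and 61.9, 163 and 74.3 in Cas9 1 to 3. Among adipocyte markers 4 of 7 were higher, and Fabp4, a fatty acid binding protein of fat cells and macrophages, stood at 0.401 to 1.21 (median 0.517) against 114 in Ctrl 3 and 125, 78.9 and 62.0 in Cas9 1 to 3.

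Other tissues did not follow that pattern. Of 12 skeletal muscle markers 7 were lower and 0 higher, against 9.17% and 10.1% of all genes. Among the 6 WT and GSH libraries all 12 were highest in WT 2. Acta1, skeletal muscle actin, stood at 40.6, 198 and 55.0 in WT 1 to 3, at 39.4, 40.6 and 59.6 in GSH 1 to 3, and at 0.479 in Ctrl 3 and 27.7, 16.6 and 0.334 in Cas9 1 to 3. Haemoglobin genes overlapped between the sets. Hbb-bs stood at 10.7 to 125 (median 40.1) against 173 in Ctrl 3 and 92.9, 423 and 163 in Cas9 1 to 3. Keratinocyte markers gave 0 higher genes of 11 and 1 lower, Sbsn (by RPM 2 higher and 0 lower), but Cas9 3 stood apart within its set. Krt14, a basal keratin, stood at 46.0 to 68.4 (median 59.8) against 184 in Ctrl 3 and 83.7, 168 and 818 in Cas9 1 to 3, and Krtdap, a protein of cornifying keratinocytes, at 0 to 3.55 (median 0.315) against 0 in Ctrl 3 and 0, 0 and 136 in Cas9 1 to 3. Mup5, a major urinary protein, was listed at 0 in Ctrl and Cas9 and stood at 0.216, 4.71 and 38.1 in WT 1 to 3 and 0.150, 96.5 and 54.4 in GSH 1 to 3. None of the 4 shared hepatocyte markers reached a mean level of 1. The muscle, keratinocyte and urinary protein genes varied between libraries of a single group. Fibroblast sums did so too, at 51.1 to 172 in WT and GSH. Of the 12 muscle markers 10 lay below without overlap (48.5% of all genes did). Their sums were 238 to 686 in WT and GSH against 44.4 to 110 in Ctrl and Cas9. The keratinocyte and urinary protein genes were not read as differences of the sets, and what lay behind the variation was not tested.

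Traces of leukocyte genes in the WT and GSH libraries were unequal too. GSH 3 was the highest of the 6 for 11 of 21 macrophage markers, 7 of 10 class II and dendritic genes and 10 of 18 pan-leukocyte genes. It held Lyz2 at 27.0 and Cd74 at 25.8, while the other 5 libraries reached 8.0 and 15.5. The part of these traces in any result was not tested, and with or without GSH 3 the higher genes numbered 1272 and 1274.

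The simple epithelial markers Krt8, Krt18 and Epcam were present in all 10 libraries. Krt8, a keratin of simple epithelia, stood at 1507 to 1921 (median 1720.3) against 1988 in Ctrl 3 and 1375, 1784 and 2009 in Cas9 1 to 3, and its partner Krt18 at 2013 to 2303 (median 2221) against 2185 in Ctrl 3 and 1568, 2111 and 2033 in Cas9 1 to 3. The sets overlapped for both. Epcam, an epithelial adhesion molecule, stood at 1183 to 1602 (median 1362) against 465 in Ctrl 3 and 424, 539.9 and 721 in Cas9 1 to 3, lower without overlap but short of the limit at -1.37, or -0.74 by RPM. In the list of 11 simple epithelial and mammary markers compared, 2 were lower, Cdh1 (E-cadherin, -2.42) and Cldn3 (a tight junction claudin, -2.93), and 0 higher. Epithelial transcripts were thus present in both sets, but not at the same level. The list summed to 10208.5 to 10651.5 in WT and GSH against 4857 to 6692 in Ctrl and Cas9. The Ctrl and Cas9 libraries also held leukocyte, fibroblast and vessel transcripts far above WT and GSH. Skeletal muscle and haemoglobin transcripts were present in both sets. The source of any of these transcripts was not tested.

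Interferon-induced genes were also higher. All 18 interferon-gamma-induced GTPases and targets compared were higher, against 10.1% of all genes, with a median difference of 5.24 (5.79 by RPM). Gbp2, a guanylate-binding protein of cell-autonomous defence, stood at 2.01 to 3.12 (median 2.63) against 265 in Ctrl 3 and 331, 391 and 585 in Cas9 1 to 3. Igtp, an immunity-related GTPase, stood at 5.15 to 6.77 (median 5.54) against 161 in Ctrl 3 and 274, 278 and 319 in Cas9 1 to 3. Ctrl 3 was the lowest of its set for 17 of the 18 genes, yet lay above all WT and GSH libraries. Irf1, a transcription factor that interferon-gamma induces, was already present in WT and GSH at 27.0 to 43.0 (median 35.9) and stood at 184 in Ctrl 3 and 201, 202 and 199 in Cas9 1 to 3.

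Of 18 interferon-stimulated genes compared 14 were higher and 0 lower, against 10.1% and 9.17% of all genes. Irf7, a regulator of interferon genes, stood at 0.954 to 3.92 (median 1.44) against 122 in Ctrl 3 and 159.9, 196 and 153 in Cas9 1 to 3, and Isg15, a ubiquitin-like modifier, at 7.75 to 11.4 (median 10.2) against 132 in Ctrl 3 and 177, 197 and 195 in Cas9 1 to 3. Bst2, the virus-tethering protein tetherin, was high in both sets, at 335 to 428 (median 384) against 468 in Ctrl 3 and 653, 702 and 733 in Cas9 1 to 3. Its difference was 0.72.

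The promoters of the higher genes held interferon and myeloid motifs more often than those of all compared genes. The promoter was the RefSeq window (GRCm38.p6) of 250 bases before to 50 after a gene's first listed start, found for 946 of 1272 higher, 885 of 1160 lower and 9949 of 12650 compared genes, and each motif was searched on both strands. The core of the interferon-stimulated response element was in 8.46% of higher, 2.60% of lower and 3.14% of all promoters. The motif of PU.1, a myeloid and B cell transcription factor, the letters GAGGAAGT, was in 6.87%, 2.71% and 3.10%. The RUNX motif TGTGGT was in 17.4%, 11.5% and 12.5%, and the GC box GGGCGG in 47.5%, 62.0% and 64.3%. CG dinucleotides numbered 9 per promoter in the median of the higher genes, 20 in the lower genes and 21 in all. These are matches of letters with no test, and a match is not a bound site.

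Promoters of 3 named higher genes are shown because they hold these motifs, Isg15 with 3 matches to the response element, Ctss with the PU.1 motif, the response element and a GC box, and C1qc with the PU.1 motif, the RUNX motif and a GC box. Capitals mark every match to the 4 motifs on either strand, and each is written 5′ to 3′ on the strand of its gene. Isg15 is at chr4:156200769-156201068 on the minus strand, Ctss at chr3:95526536-95526835 on the plus strand and C1qc at chr4:136892865-136893164 on the minus strand.
Isg15: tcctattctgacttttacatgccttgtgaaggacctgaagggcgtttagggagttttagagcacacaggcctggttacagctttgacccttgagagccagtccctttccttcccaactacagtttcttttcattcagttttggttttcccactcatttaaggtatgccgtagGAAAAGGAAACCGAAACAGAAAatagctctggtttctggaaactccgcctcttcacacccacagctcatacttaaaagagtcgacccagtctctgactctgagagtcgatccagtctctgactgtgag
Ctss: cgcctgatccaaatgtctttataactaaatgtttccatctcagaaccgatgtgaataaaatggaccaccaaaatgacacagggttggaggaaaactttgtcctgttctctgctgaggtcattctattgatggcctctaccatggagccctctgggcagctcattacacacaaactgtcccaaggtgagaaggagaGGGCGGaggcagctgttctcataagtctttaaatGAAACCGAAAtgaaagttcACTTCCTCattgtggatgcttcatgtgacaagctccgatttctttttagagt
C1qc: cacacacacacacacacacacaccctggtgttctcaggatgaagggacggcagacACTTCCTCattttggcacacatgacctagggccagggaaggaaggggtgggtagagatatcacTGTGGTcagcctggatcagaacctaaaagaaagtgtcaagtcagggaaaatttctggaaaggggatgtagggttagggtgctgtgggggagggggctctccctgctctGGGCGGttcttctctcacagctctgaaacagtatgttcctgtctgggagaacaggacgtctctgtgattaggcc

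Antigen presentation by MHC class I lay above WT and GSH throughout, but by less. All 12 class I presentation genes compared lay higher without overlap (31.9% of all genes did), and 5 passed the size limit, Psmb8, Psmb9, Psmb10, Tap1 and H2-T23, while by RPM 8 did. Psmb8, an immunoproteasome subunit, stood at 5.00 to 6.61 (median 5.14) against 609 in Ctrl 3 and 736, 815 and 689.6 in Cas9 1 to 3. H2-K1, a classical class I chain, stood at 291 to 406 (median 359) against 990.4 in Ctrl 3 and 1167, 1272 and 1156 in Cas9 1 to 3, and B2m, the light chain, at 2391 to 3051 (median 2657) against 5870.2 in Ctrl 3 and 6819.7, 7347 and 6597 in Cas9 1 to 3. Their differences were 1.69 and 1.31 (1.95 and 2.03 by RPM), smaller than the 6.77 of Psmb8. The constitutive proteasome gave 2 higher of 22, near the 10.1% of all genes. They were Psmb1 and Psmb7, and both fell under the limit by RPM, at 0.70 and 1.05. Complement genes gave 9 higher of 11, against 10.1% of all genes. Serping1, the C1 inhibitor, stood at 0.606 to 2.25 (median 1.20) against 104 in Ctrl 3 and 94.2, 126 and 78.3 in Cas9 1 to 3. C3, the central complement protein, overlapped at 198 to 219 (median 216) against 110.1 in Ctrl 3 and 214, 149 and 153 in Cas9 1 to 3.

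Checkpoint genes were mostly higher. Of 12 compared, 8 were higher and 1 lower, against 10.1% and 9.17% of all genes. By RPM 7 were higher and 0 lower, against 11.2% and 5.28%. Lgals9, a galectin that binds inhibitory receptors, stood at 3.00 to 4.49 (median 3.55) against 246 in Ctrl 3 and 281, 282 and 230.5 in Cas9 1 to 3. Nt5e, the ectoenzyme CD73, stood at 85.1 to 102 (median 92.2) against 478 in Ctrl 3 and 387, 341 and 507 in Cas9 1 to 3. Tigit, an inhibitory receptor of lymphocytes, was the lower gene, at 174 to 219 (median 193) against 9.72 in Ctrl 3 and 8.01, 8.97 and 41.9 in Cas9 1 to 3. Its difference was -3.77, but -1.84 by RPM, and its level in WT and GSH stood far above those of T cell markers such as Cd3g.

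**Figure D5:**
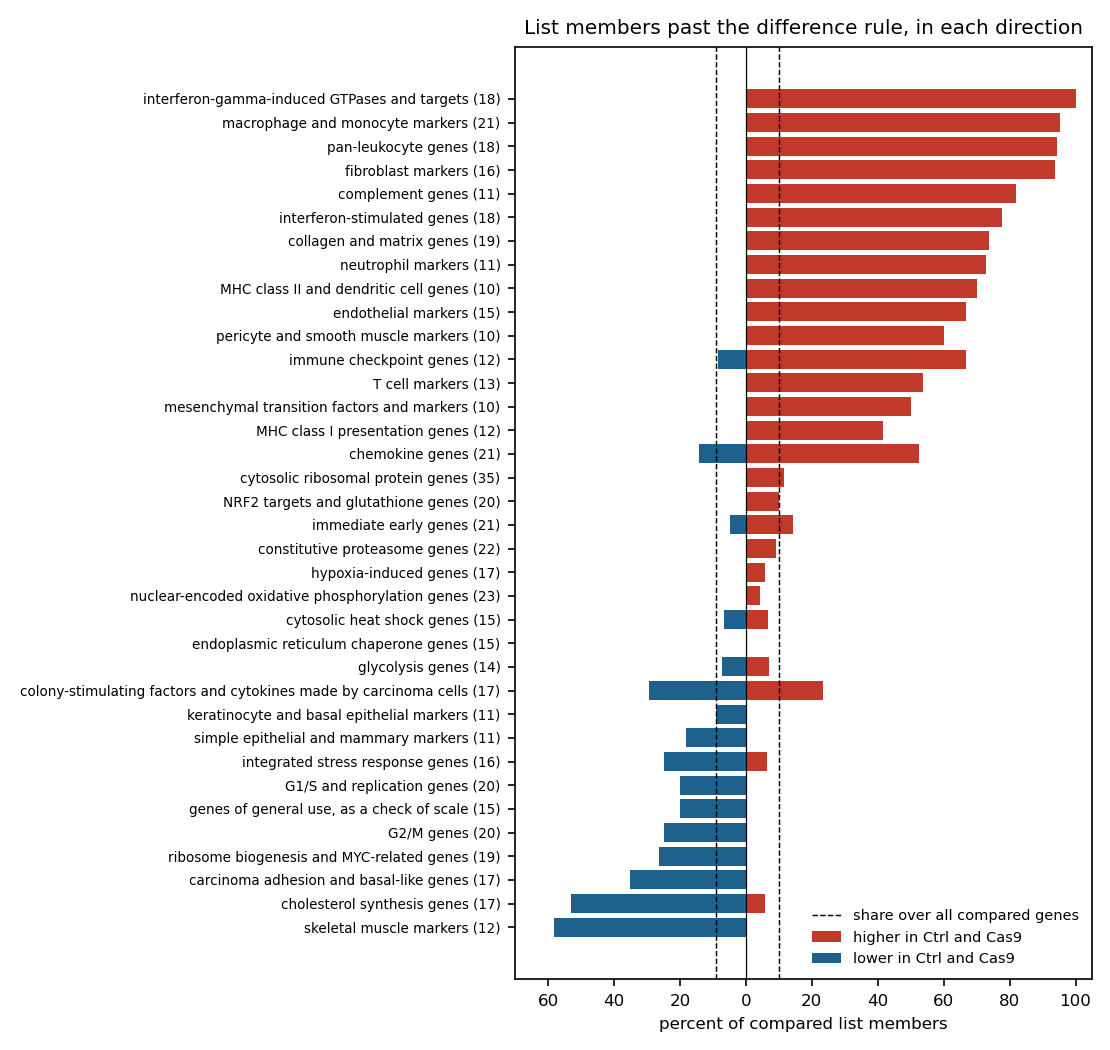
Percent of the compared members of each list of 10 or more genes that were higher (red, to the right) or lower (blue, to the left) in Ctrl and Cas9, with the number of members compared in brackets. Dashed lines mark the shares over all compared genes, 10.1% higher and 9.17% lower.

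In the downward direction the largest difference was that of Cxcl5, a chemokine that attracts neutrophils. It stood at 2174, 1952 and 1953 in WT 1 to 3, at 1896, 1650 and 1665 in GSH 1 to 3, and at 1.82 in Ctrl 3 and 5.13, 5.31 and 12 in Cas9 1 to 3. The lowest WT or GSH library lay far above Cas9 3, the highest of the others, and the difference was -8.26 (-7.60 by RPM). Cxcl1, a chemokine with the same receptor, stood at 903 to 1048 (median 987) against 19.1 in Ctrl 3 and 24.7, 37.3 and 85.2 in Cas9 1 to 3, and Cxcl3, the third lower chemokine, differed by -4.68. Of 21 chemokines compared 11 were higher and 3 lower, against 10.1% and 9.17% of all genes, so the list ran in both directions. Ccl8 stood at 0 to 2.22 (median 0.626) against 322 in Ctrl 3 and 153, 309 and 902 in Cas9 1 to 3, highest in Cas9 3.

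Among carcinoma-secreted factors, 5 of 17 were lower and 4 higher, against 9.17% and 10.1% of all genes. Csf3, the granulocyte colony-stimulating factor, stood at 931 to 1010.2 (median 965) against 39.5 in Ctrl 3 and 52.0, 35.8 and 73.8 in Cas9 1 to 3. The other lower members were Csf2, Lif, Il1a and Vegfc, and by RPM 3 members were lower. Lcn2, the iron-binding lipocalin, was higher, at 15.3 to 24.0 (median 19.2) against 478 in Ctrl 3 and 1167, 771 and 576 in Cas9 1 to 3, and the other higher members were Saa3, Il33 and Tgfb1. Spp1, osteopontin, was among the 10 most abundant genes of Ctrl and Cas9, at 1287 to 1768 (median 1523) against 6799.6 in Ctrl 3 and 5465, 6445 and 3819 in Cas9 1 to 3. Ptgs2, the inducible cyclooxygenase, was also lower, at 1209 to 1540.4 (median 1391) against 22.2 in Ctrl 3 and 16.4, 29.8 and 41.7 in Cas9 1 to 3. Both Csf3 and Ptgs2 kept their direction by RPM, at -3.11 and -5.02.

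The other 10 of the 12 largest downward differences came from varied families. Ankle1, a nuclease, stood at 169 to 261 (median 212) against 1.19 in Ctrl 3 and 0.913, 0.766 and 1.16 in Cas9 1 to 3. Klk10, a kallikrein-type protease of epithelia, stood at 149 to 169 (median 161) against 1.07 in Ctrl 3 and 0.0483, 0.851 and 5.71 in Cas9 1 to 3. Lce1g, a late cornified envelope gene, stood at 116 to 161 (median 138) and was listed at 0 in Ctrl 3, Cas9 1 and Cas9 2, so its difference depends on the pseudocount. Dlk2 (an EGF-like membrane protein), Mfsd2a (a lysolipid transporter), Htr5b (a serotonin receptor gene), Scamp3 (a vesicle membrane protein), Slc29a2 (a nucleoside transporter), Slc16a8 (a monocarboxylate transporter) and Lingo3 lay between -5.04 and -6.14. By RPM all 12 stayed beyond -2, between -3.41 for Slc29a2 and -7.60 for Cxcl5.

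Most genes of proliferation lay lower in Ctrl and Cas9, but by less than the limit. Of 20 G2/M genes 18 lay below WT and GSH without overlap (48.5% of all genes did), and 5 passed the limit, Mki67, Plk1, Bub1, Cenpe and Cenpf. Mki67, the proliferation antigen, stood at 333 to 412 (median 370.4) against 59.5 in Ctrl 3 and 29.6, 59.2 and 56.4 in Cas9 1 to 3. Cas9 1 was the lowest of the 4 Ctrl and Cas9 libraries for all 20. Of 20 G1/S genes 17 lay below without overlap and 4 passed the limit, Mcm5, Cdc6, Rrm2 and Cdc45. Mcm5, part of the replicative helicase, stood at 406 to 479 (median 433) against 93.4 in Ctrl 3 and 61.2, 89.2 and 102 in Cas9 1 to 3. Pcna, the replication clamp, overlapped at 364 to 409 (median 397) against 338 in Ctrl 3 and 279, 313 and 395 in Cas9 1 to 3. The median differences of -1.65 and -1.34 (-1.28 and -1.0 by RPM) are to be read beside -0.30 (0.02 by RPM) over all genes. By RPM 2 G2/M and 2 G1/S genes passed the limit. These counts are to be read beside 9.17% lower (5.28% by RPM) over all genes.

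Cholesterol synthesis genes gave 9 lower of 17 and 1 higher, against 9.17% and 10.1% of all genes. Cyp51, which demethylates lanosterol, stood at 301 to 389 (median 341) against 39.4 in Ctrl 3 and 12.9, 27.4 and 40.5 in Cas9 1 to 3. Cas9 1 was the lowest of the 4 Ctrl and Cas9 libraries for all 17 of these genes, too. Fdps, farnesyl diphosphate synthase, was the higher member, at 9.57 to 16.2 (median 11.7) against 146 in Ctrl 3 and 66.3, 131 and 187 in Cas9 1 to 3. By RPM 7 members were lower, against 5.28% of all genes, and the median was -1.69, beside 0.02 over all genes.

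Ribosome biogenesis and MYC-related genes gave 5 lower of 19, against 9.17% of all genes, and by RPM 3, against 5.28%. Without overlap 17 lay below, as 48.5% of all genes did. Nop56, a nucleolar protein of small RNA particles, stood at 848 to 1035 (median 928) against 52.9 in Ctrl 3 and 57.0, 45.8 and 47.1 in Cas9 1 to 3. Npm1, nucleophosmin, stood at 3039 to 3411 (median 3163) against 1374 in Ctrl 3 and 1357, 1566 and 2051 in Cas9 1 to 3, a difference of -1.02. Carcinoma adhesion and basal-like genes gave 6 lower of 17, with 16 below without overlap, and by RPM 3 were lower, to be read beside the same shares. Itga3, a laminin-binding integrin chain, stood at 2907 to 3289 (median 3100.4) against 625 in Ctrl 3 and 398, 567 and 508 in Cas9 1 to 3, and came to -1.98 by RPM, just under the limit. Among integrated stress response genes 4 of 16 were lower, Psat1, Slc7a5, Slc3a2 and Slc7a3, and 1 was higher, the cystine transporter Slc7a11 at 1.06 to 1.45 (median 1.39) against 6.45 in Ctrl 3 and 18.4, 18.0 and 8.99 in Cas9 1 to 3. By RPM the balance of calls turned round, with 1 lower and 2 higher, while the median stayed negative, at -1.43 by rescaled FPKM and -1.04 by RPM. Over all genes 9.17% were lower and 10.1% higher, and by RPM 5.28% and 11.2%. Slc3a2, the heavy chain of that transporter, gave -3.61 by rescaled FPKM and -1.43 by RPM.

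Early response genes were mixed. Of 21 compared 3 were higher, Fos, Egr2 and Klf2, and 1 was lower, while by RPM 6 were higher and 1 lower, with medians of 0.67 and 1.39. Over all genes 10.1% were higher and 9.17% lower, and by RPM 11.2% and 5.28%. The lower gene, Ier3, stood at 1894 to 2004 (median 1943) against 127 in Ctrl 3 and 107, 121 and 164 in Cas9 1 to 3. Hypoxia-induced genes gave 1 higher of 17 (2 by RPM), which does not set the list apart from the 10.1% (11.2% by RPM) of all genes. The higher gene, Ndrg1, stood at 58.2 to 70.4 (median 64.4) against 284 in Ctrl 3 and 267, 588 and 679.7 in Cas9 1 to 3. Cas9 2 and Cas9 3 were the upper pair of the Ctrl and Cas9 libraries for it, as they were for the glucose transporter Slc2a1, which stood at 313 to 352 in WT and GSH, at 119 in Ctrl 3 and 113, 233 and 299 in Cas9 1 to 3. Mesenchymal genes gave 5 higher of 10, Vim, Zeb2, Twist2, Prrx1 and S100a4. Which cells these transcripts came from was not tested. Vim, vimentin, stood at 995 to 1179 (median 1096) against 4857 in Ctrl 3 and 3519.9, 3913 and 5750.4 in Cas9 1 to 3, a difference of 2.02 that became 1.37 by RPM.

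Several groups had few genes or none past the limit, beside 10.1% higher and 9.17% lower over all genes. The TRiC chaperonin, endoplasmic reticulum chaperones and nuclear-encoded oxidative phosphorylation genes gave 0 of 8, 0 of 15 and 1 of 23 past the limit. The single gene, Ndufb5, came to 0.87 by RPM. The endoplasmic reticulum chaperones still had a median of -0.92 (-0.34 by RPM). Their sums were 9543 to 12107 in WT and GSH against 5413 to 6391 in Ctrl and Cas9. NRF2 targets and glutathione genes gave 2 higher of 20, Slc7a11 and the plasma glutathione peroxidase Gpx3, at 4.22. Glycolysis genes gave 1 higher of 14, the lactate transporter Slc16a3 at 4.65, and 1 lower, lactate dehydrogenase Ldha, at -2.21 but -0.80 by RPM. The medians of the oxidative phosphorylation, TRiC, hypoxia, heat shock and carcinoma-secreted lists change sign with the scaling, so no direction is given for them. Actb, cytoplasmic actin, stood at 3210.1 to 3898 (median 3478) against 3866 in Ctrl 3 and 3684, 3920.5 and 3297 in Cas9 1 to 3, and Eef2, an elongation factor, at 4608 to 6138 (median 5275) against 4457 in Ctrl 3 and 5015, 4691 and 4645 in Cas9 1 to 3. The sets overlapped for both. In the list of genes of general use 3 of 15 were lower, among them Tfrc and Gusb, and Gusb came to -0.78 by RPM. Tfrc, the transferrin receptor, stood at 858 to 1141 (median 984) against 34.2 in Ctrl 3 and 24.0, 28.4 and 56.9 in Cas9 1 to 3. Ribosomal protein genes gave 4 higher of 35, Rpl24, Rpl30, Rps14 and Rps19, of which only Rpl24 kept a difference over 2 by RPM, and 47.0% of its exon bases are shared with another gene. The ribosomal list nevertheless lay apart from the background in direction. Without overlap 29 of the 35 lay above WT and GSH (31.9% of all genes did) and 4 below. Their median difference was 0.98 (0.74 by RPM), beside -0.30 (0.02 by RPM) over all genes.

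The groups inside each table were also compared. With limma on log2(FPKM + 1) over each whole table, 4547 of 12283 genes (37%) differed between GSH and WT at a Benjamini-Hochberg adjusted p under 0.05. Between Cas9 and Ctrl 0 of 11407 genes (0%) did by limma, with 210 at an unadjusted p under 0.05, but with 1 Ctrl library this count does not show that these groups are alike. Among genes higher in Ctrl and Cas9, 336 could be tested for GSH against WT and 84 (25%) differed, 61 up and 23 down in GSH. Of genes lower in Ctrl and Cas9, 1125 could be tested and 488 (43.4%) differed, 119 up and 369 down. Of all compared genes, 10200 could be tested and 4001 (39.2%) differed, 2313 up and 1688 down. The WT and GSH libraries enter both this comparison and the one between the tables. Ankle1, for one, fell in GSH by 0.42 (SE 0.04, adjusted p = 0.00179 by limma), beside its difference of -6.72 between the sets. Ptgs2 rose in GSH by 0.30 (SE 0.04, adjusted p = 0.00318 by limma) while it was lower in Ctrl and Cas9. Cxcl5 did not pass, at -0.15 (SE 0.07, adjusted p = 0.121 by limma). As no label ties the replicates to separate cultures, these p-values measure only the spread between samples, which may be technical.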

How the data were processed

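The files hold 1 value per gene and library. Neither labels nor headers state the unit, and the authors' deposited values were taken as FPKM from the values themselves, whose steps correspond to whole reads (within 0.15 read). Per the submitters' processing notes, Bowtie2 (2.2.3), HISAT2 (2), HTSeq (0.6.0) and the build mm8 were named, with no roles. Per the labels' protocols, total RNA was taken with Trizol and prepared with a NEBNext Ultra kit. Ensembl identifiers were matched to symbols with the GENCODE tables (16234 by current symbol and 248 by an older one). Lengths implied by the FPKM equalled merged GENCODE M21 exons for 98.5% of WT and GSH genes. For Ctrl and Cas9 they were set against the longest GENCODE M21 transcript instead, and equalled it for 6.79% of genes. Reads were recovered for 100% of genes above 0, in part by length (4 and 359 genes), and can be low by a whole factor for some. They give the depth of each library and RPM, and counting error is small beside the differences named.

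Replicates are numbered in the sample titles. Within tables, limma 3.58.1 (R 4.3.3; lmFit and eBayes with a trend, two-sided) was fitted on log2(FPKM + 1) over genes whose mean FPKM reached 1, with Benjamini-Hochberg adjustment at 0.05. Scripts were tested on simulated data. Named were the 12 largest differences per direction, without Gm, Rik, pseudogene and clone names, and the 4 most abundant members of each of 49 lists; members named beside a count of 5 or fewer, and others outside this rule, were chosen after their values were seen. The members and lists were chosen with earlier results of these data known. No mitochondrially encoded gene is shared by both tables. Alternatives were other pseudocounts, filters, scalings, ranks, RPM, symbol matching and left-out libraries. Some members of the lists are counted but not reported here by name.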

Additional observations from a re-analysis of the deposited data

How the results depend on the processing

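The 1272 higher and 1160 lower genes became 693 and 539 with a pseudocount of 5 and 2498 and 3674 with a limit of 1 in place of 2, and the share of higher genes among calls went to 56.2% and 40.5%. Lower genes numbered 757 with median-of-ratios scaling and 675 by RPM. Over 4832 genes with no exon bases shared with another gene and similar length in both tables, an alternative chosen after seeing the data, 497 were higher and 520 lower, as fewer genes were compared. Leaving out 1 library gave 1247 to 1302 higher and 1139 to 1198 lower genes, with 1302 and 1175 without Cas9 3. Other settings stayed within 1.5 times. None of the called genes named by the rule changed direction under any alternative, but 9 of 90 fell under the limit of 2 by RPM (Cma1, Mcm5, Ldha, Slc3a2, Hspd1, Vim, Itga3, Tigit and Nt5e). GSH against WT gave 4547 genes, 3867 with the replicate number as a block, and 2998 to 3671 without 1 library, the lowest without WT 1. Same-numbered WT and GSH samples deviated from their group means with correlations of 0.48, -0.11 and 0.21, so the numbers were not taken to pair them. No paired analysis was possible for Cas9 against Ctrl because they share 1 number, and the count there (0, and 0 to 0 without 1 Cas9 library) says nothing about stability with 1 Ctrl library. Levels near 0 are limited by depth and by gene models.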
